A study of Mus musculus with 12 samples.

Results

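The circular RNAs described here are those whose back-splice junction closes a stretch of at most 1000 bp of genome, counted from the first to the last base of the deposited coordinates (mm10). By this rule 1318 of the 13474 circRNAs in the mammary and melanocyte tables together were short. The mammary table held 948 short circRNAs of 9492, all with reads. The melanocyte table held 1266 of 12910, of which 843 of 8857 had reads. In all, 1250 short circRNAs had reads in at least 1 table and 541 in both.

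A circRNA forms when the spliceosome joins the end of an exon to the start of the same exon or of one upstream, which leaves a closed ring with no free ends. The ring resists exonucleases such as RNase R, and only a read across the back-spliced junction tells it from the linear transcript. Rings of short span come from 1 exon or a few neighbouring ones. Those that hold a start codon or lie in coding sequence have been studied as possible templates for peptides, the subject named in the series title.

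Junction reads were counted in 4 mouse cell lines with 3 libraries each. The mammary pair was 4T1, a breast cancer line, against Eph4-ev, a breast epithelial line, and the pigment cell pair was B16F10, a melanoma line, against Melan-a, a melanocyte line. Total RNA of all 12 libraries was treated with RNase R. The labels name no drug, gene edit or separate culture for any library, and each group is 1 line, so tumour state and any other way in which the lines differ cannot be told apart. Junction reads per library ranged from 15572 to 44625 in 4T1, from 50648 to 56649 in Eph4-ev, from 16697 to 20011 in B16F10 and from 25072 to 33557 in Melan-a. Levels are given in RPM, the junction reads of a circRNA scaled to a common total of junction reads per library, and fewer cells carrying a circRNA cannot be told apart from less of it per cell. Within Melan-a, replicate 2 agreed least with the other libraries (Pearson r of log2 levels 0.691 with replicate 1 and 0.678 with replicate 3). Replicates 1 and 3 of Melan-a gave 0.732 with each other. Several results of the pigment cell pair are also given without Melan-a replicate 2. The 4T1 libraries agreed less still, at 0.594 for replicates 1 and 2, 0.625 for 1 and 3 and 0.651 for 2 and 3. The lowest r was 0.777 in Eph4-ev and 0.742 in B16F10. Junction reads from hosts that mark melanocytes were 0 for all 12 genes of the list in 4T1, came from 1 gene in Eph4-ev (Mitf, 5 reads in 1 library), and came from 8 genes in B16F10, with 10978 to 12743 RPM in sum, and 9 in Melan-a, with 5525 to 9476 RPM. The epithelial list of 13 genes had 7 hosts with reads in 4T1, 7 in Eph4-ev, 2 in B16F10 and 3 in Melan-a. The 7 were Cdh1, Epcam, Esrp1, Grhl2, Inadl, Myo5b and Tjp1 in both mammary lines, and the 4 keratin genes, Cldn4 and Ovol1 had 0 junction reads in every line, which says nothing of their mRNA. The summed level of the list was 1413 to 2707 RPM in 4T1, against 4284 to 4749 RPM in Eph4-ev.

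The working description of these circRNAs as mostly rings of a single exon went against the annotation. GENCODE M21 placed both ends of 1285 of the 1318 (97.5%) at exon boundaries of 1 transcript. Of these, 466 (36.3%) covered 1 exon, 661 (51.4%) covered 2, 131 (10.2%) covered 3 and 27 covered 4 or more. Among longer circRNAs, 0.823% covered 1 exon, a contrast that the limit on span helps to set. By reads the picture differed, since rings of 1 exon held 62.8 to 65.7% of the short junction reads in the 6 mammary libraries, 44.5 to 46.1% in B16F10 and 51.2 to 56.1% in Melan-a.

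The sequences below show the join of the short circRNAs that the comparisons turn on, read from GENCODE M21 transcripts (GRCm38, the same assembly as mm10), 5′ to 3′ on the strand of the transcript. Lower case gives the last 15 bases of the ring before the back-splice and capitals the first 15 bases after it, so that each run of 30 bases spans a join that the linear transcript lacks.
Zfp609 exon 2, chr9:65794622-65795495, minus strand: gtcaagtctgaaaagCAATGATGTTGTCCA
Alg12 exons 6 to 7, chr15:88811297-88812159, minus strand: aggctgcacctatatGGCTGACGGTTGCTG
Vars exons 21 to 22, chr17:35013265-35013747, plus strand: ggagtttccttgcagTCAGAAGACCTCAGT
Fbxw7 exon 4, chr3:84903501-84904079, plus strand: acaaagacaacaaaaAATGTGAAAACCTTT
Med13l exon 2, chr5:118593333-118593570, plus strand: atcatgaactgcaggGCTGAACTCACAGGA
Fam160b1 exons 6 to 7, chr19:57378549-57379175, plus strand: ggcagttaactggggAACAAATCAAAGTCC
Tead1 exon 2, chr7:112759384-112759639, plus strand: aaggcaaaatgtatgGTTTGTTTTCTTGAA
Bub1b exons 16 to 17, chr2:118630945-118631899, plus strand: aggagattgagttagCCCAATTATTGAAGA
Wasf2 exons 3 to 4, chr4:133184969-133185752, plus strand: tctcagtccttacagGTAAGTATGCAGAGG
Nfix exon 2, chr8:84771784-84772315, minus strand: ttgtccacactccggGATGAGTTCCACCCG
Pvt1 exon 2, chr15:62107148-62107465, plus strand: agctccctctaaaatGTCTGATTTTCTTAA
Epha3 exon 3, chr16:63772910-63773570, minus strand: gtttcatatgccaagTGGGAAGAGATCAGT
Hirip3 exons 5 to 6, chr7:126864320-126864661, plus strand: tcatcagcagtacagGCTGCCTCTCGCTGT
Atxn2 exons 19 to 20, chr5:121802081-121803080, plus strand: cgcacgccatgtatgTACCAAATATGCCCC
Pmel exons 7 to 8, chr10:128717751-128718142, plus strand: gtcctgccaaggcggGGTCCATTAGCCCTC

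The rings of Zfp609, Fbxw7 and Tead1 begin in the 5′ UTR and span the start codon, that of Pvt1 comes from a noncoding transcript, and the others shown lie within coding sequence. Over all annotated short circRNAs, 83.8% lay within coding sequence and 14.01% spanned a start codon with 5′ UTR, close to the 83.1% and 14.9% of longer circRNAs. The last letters of the ring were AG in 61.4% of short and 57.1% of longer circRNAs, and the first letter was G in 49.1% and 46.6%.

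In 3 small rings that lie in coding sequence, the whole ring is short enough to show, with the annotated inner intron taken as removed where 2 exons are joined. A junction read alone does not show whether that intron was spliced out. Capitals mark the ATG that opens the longest reading frame running across the back-splice.
Vars, 231 bases: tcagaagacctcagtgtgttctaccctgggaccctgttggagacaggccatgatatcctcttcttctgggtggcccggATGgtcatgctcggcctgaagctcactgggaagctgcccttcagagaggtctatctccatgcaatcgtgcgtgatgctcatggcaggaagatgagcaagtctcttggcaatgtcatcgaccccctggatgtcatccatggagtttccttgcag
Med13l, 238 bases: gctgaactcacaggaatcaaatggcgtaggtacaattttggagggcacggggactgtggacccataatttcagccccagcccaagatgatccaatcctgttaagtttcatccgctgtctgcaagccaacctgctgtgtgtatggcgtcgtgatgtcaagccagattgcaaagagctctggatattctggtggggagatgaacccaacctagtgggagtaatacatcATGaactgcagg
Pmel, 202 bases: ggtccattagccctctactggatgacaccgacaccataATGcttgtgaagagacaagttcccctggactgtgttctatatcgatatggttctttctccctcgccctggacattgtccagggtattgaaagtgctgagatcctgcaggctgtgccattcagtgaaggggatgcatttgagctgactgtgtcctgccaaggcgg

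In the Vars ring, the frame met no stop codon in 3 turns of the ring. In the Med13l ring it opened at position 227 and ran for 84 codons, and in the Pmel ring it ran for 57. The frame of the Zfp609 ring ran for 250 codons, and those of Fbxw7 and Atxn2 met no stop. Of the 1285 annotated short circRNAs, 356 (27.7%) held an ATG frame with no stop and 800 held one of at least 20 codons that crossed the junction and then ended. These are properties of the letters, and translation was not measured here.

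The limit on span itself caps the spliced length, the number of exons and the inner introns, so the lengths given here follow in part from the rule. The median spliced length was 300 bases, against 510.5 bases for longer circRNAs, and the median GC content was 51.8% against 48.1%. Rings of 1 exon had a median length of 360.5 bases and rings of 2 exons 279, with a median inner intron of 281 bases. Rings of 1 exon began at exon 2 in 43.8% of cases and rings of 2 exons in 16.2%. Over all annotated short circRNAs 26.5% began at exon 2, fewer than the 32.8% of longer circRNAs.

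The introns on either side separated the same classes. Rings of 1 exon lay between introns with medians of 10840 bases upstream and 10815 downstream, and rings of 2 exons between introns of 2113 and 1858 bases. Over all short circRNAs the medians were 3192 and 2716, against 8102 and 5772 for longer circRNAs. In 72 short circRNAs (5.62%) both flanking introns were at most 100 bases long, as in the rings of Vars (72 and 80 bases) and Hirip3 (69 and 72 bases), and this held for 0.210% of longer circRNAs. This cutoff was chosen after the values were seen.

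The 1318 short circRNAs came from 1134 hosts, of which 995 held 1 and 32 held 3 or more. The most in a host was 7, in Cpsf1 and in Lama5. At least 1 of their ends was shared with another listed circRNA in 42.0%, against 68.7% of longer circRNAs, so that short rings were more often alone at their splice sites. In Vars, 3 short circRNAs begin at the same base. An identifier starting with mmu was listed for 71.9% of short and 76.0% of longer circRNAs with reads in the mammary table, and for 72.7% and 76.7% in the melanocyte table.

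Short circRNAs took a larger share of junction reads in 4T1 than in Eph4-ev. The share was 17.5, 17.8 and 16.3% in the 4T1 libraries and 12.7, 13.2 and 13.98% in the Eph4-ev libraries, with no overlap. The means were 17.2 ± 0.79% and 13.3 ± 0.66% (SD, n = 3 each), a difference of 3.90 percentage points (exact permutation p = 0.1, two-sided, the smallest that 3 against 3 allows). Within a library, the exact 95% binomial interval of counting error was 16.9 to 18.1% in 4T1 replicate 1 and 12.4 to 13.0% in Eph4-ev replicate 1.

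In the pigment cell pair the share was 11.2, 11.3 and 11.1% in B16F10, against 12.5, 10.8 and 12.2% in Melan-a. The lines overlapped through Melan-a replicate 2, and the means of 11.2 ± 0.073% and 11.9 ± 0.93% (SD, n = 3 each) did not differ beyond their spread (difference -0.64 points, exact permutation p = 0.4). Without Melan-a replicate 2 the difference was -1.17 points. The direction turned with a limit of 500 bp (0.281 points) and of 2000 bp (0.035 points).

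**Figure D1:**
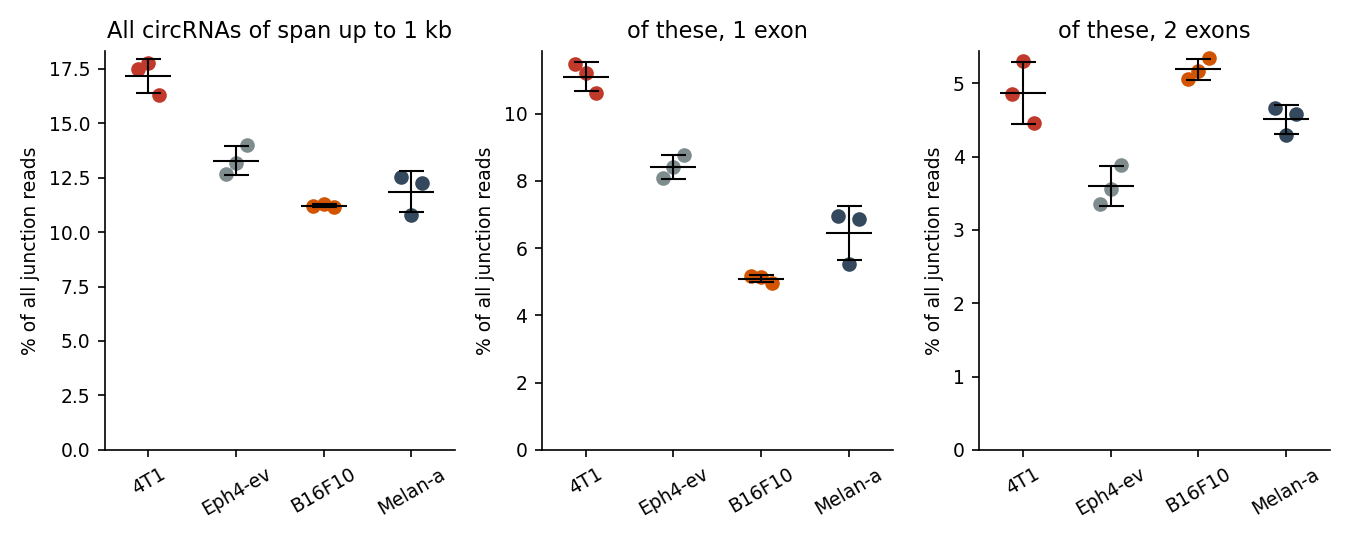
Percent of all junction reads of each library that fell on circRNAs of span up to 1 kb (left), and on those of 1 exon (middle) and 2 exons (right) among them. Points are libraries, with the mean and SD of 3 per line. The 3 4T1 libraries lie above the 3 Eph4-ev libraries in all 3 panels, and in the pigment cell pair the classes of 1 and 2 exons differ in opposite directions.

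Split by exons, 4T1 lay above Eph4-ev in both main classes. Rings of 1 exon held 11.5, 11.2 and 10.6% of all junction reads in 4T1, against 8.07, 8.42 and 8.79% in Eph4-ev, and rings of exon 2 alone held 9.21, 8.89 and 8.23%, against 6.37, 6.75 and 7.11%. Rings of 2 exons held 4.85, 5.30 and 4.46% in 4T1, against 3.35, 3.55 and 3.89% in Eph4-ev. In B16F10 against Melan-a the classes parted. Rings of 1 exon held 5.16, 5.15 and 4.96% in B16F10, against 6.96, 5.53 and 6.87% in Melan-a, whereas rings of 2 exons held 5.06, 5.16 and 5.34% in B16F10, against 4.66, 4.29 and 4.58% in Melan-a. None of these groups overlapped. Without Melan-a replicate 2 the difference was -1.82 points for rings of 1 exon (-1.36 with it) and 0.567 points for rings of 2 exons (0.678 with it). Each of these differences had an exact permutation p of 0.1 (0.133 after Benjamini-Hochberg adjustment over 8 such comparisons, which were chosen after the values were seen).

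In proportion, the lines of the mammary pair were furthest apart at the shortest spans. Circles of at most 250 bp held 1.70 ± 0.41% of reads in 4T1, against 0.629 ± 0.075% in Eph4-ev (SD, n = 3 each). Those of 251 to 500 bp held 6.39 ± 0.45% and 4.39 ± 0.35%, those of 501 to 1000 bp 9.08 ± 0.032% and 8.25 ± 0.25%, and those of 1001 to 2000 bp 11.6 ± 0.29% and 11.6 ± 0.25%. The Med13l ring accounts for 1.13 points in 4T1, against 0.309 in Eph4-ev in the shortest bin. In B16F10 and Melan-a the shortest bin held 0.529 ± 0.041% and 0.494 ± 0.080% (SD, n = 3 each), a difference of 0.036 points that was -0.0042 without Melan-a replicate 2.

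**Figure D2:**
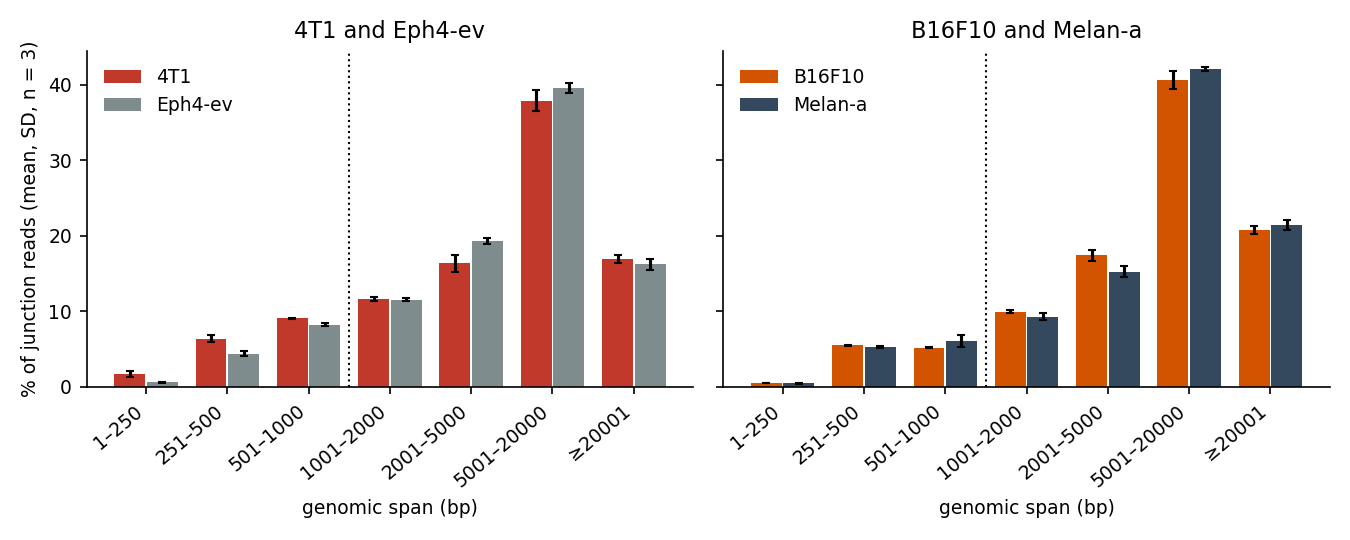
Percent of junction reads by genomic span of the circRNA, from 1 to 250 bp up to 20001 bp and more, as the mean and SD of 3 libraries per line. The dotted line marks 1000 bp. In the bin of 1 to 250 bp the mean is 1.70% in 4T1, against 0.629% in Eph4-ev, and 0.529% in B16F10, against 0.494% in Melan-a.

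A few rings carried much of this. The 10 most abundant held 38.6 to 39.9% of the short reads in 4T1, 37.7 to 39.1% in Eph4-ev, 32.6 to 36.4% in B16F10 and 40.2 to 50.9% in Melan-a (lowest in replicate 2), whereas the top 10 of the longer circRNAs held 6.21 to 13.6% of theirs. In the mammary pair 469 short circRNAs had a higher mean share in 4T1, adding 7.61 points, and 479 a higher one in Eph4-ev, adding -3.71. Med13l added 0.819 points, Nfix 0.576, Pvt1 0.351 and Fam160b1 0.229, and Zfp609 added -0.591. In the pigment cell pair Pmel added 0.427 points and Trip6 0.169, and Pvt1 added -0.975, Alg12 -0.625 and Zfp609 -0.403. Without Melan-a replicate 2 these were 0.507 for Pmel, 0.146 for Trip6, -1.19 for Pvt1, -0.822 for Alg12 and -0.493 for Zfp609.

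By its mean over the 6 libraries of a pair, the most abundant short circRNA in both pairs was exon 2 of Pvt1, a long noncoding gene beside Myc. In 4T1 alone exon 2 of Nfix averaged slightly more (17749 ± 1724 RPM, and Pvt1 17612 ± 2002 RPM, SD, n = 3), a gap well within their spread. The Pvt1 ring stood at 17596, 19622 and 15619 RPM in 4T1, against 13051, 13116 and 16130 RPM in Eph4-ev. In the pigment cells it stood at 11344, 14165 and 12038 RPM in B16F10, against 25168, 18059 and 23572 RPM in Melan-a. The mammary groups overlapped (edgeR adjusted p = 0.732 for a log2 fold of 0.08, SE 0.12). B16F10 lay wholly below Melan-a (adjusted p = 0.0121 for a log2 fold of -0.89, SE 0.20), a call lost without B16F10 replicate 1, 2 or 3 (adjusted p of 0.14, 0.0815 and 0.135) and with no filter on low counts (0.076).

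Exon 2 of Nfix, a nuclear factor I transcription factor gene, was abundant in the mammary lines. It had 268, 349 and 730 reads in 4T1, against 652, 651 and 645 in Eph4-ev. Far fewer reads were seen in the pigment cells, with 12, 13 and 11 in B16F10, against 11, 24 and 23 in Melan-a. The mammary groups did not overlap in RPM, at 16359 to 19679 in 4T1, against 11492 to 12873 in Eph4-ev, and Nfix missed the threshold (edgeR adjusted p = 0.0814 for a log2 fold of 0.33, SE 0.12, and 0.0139 with total-read scaling and 0.0246 with a minimum count of 10).

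Exons 7 to 8 of Pmel, the gene of the fibril protein of melanosomes, were seen in the pigment cells. They had 10044, 8263 and 8804 RPM in B16F10, against 4467, 6377 and 3458 RPM in Melan-a. This ring was not listed in the mammary table, where Pmel had 0 junction reads. The B16F10 and Melan-a groups did not overlap, and Pmel missed the threshold (edgeR adjusted p = 0.0624 for a log2 fold of 0.85, SE 0.28). It passed without Melan-a replicate 2 (adjusted p = 0.000885), with DESeq2 (0.0242), with total-read scaling (0.0416) and with a minimum count of 10 (0.0443).

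Short circRNAs had more reads per detected circRNA. A short one with reads held 1.45 times as many reads as a longer one in the mammary libraries (mean log2 ratio 0.54 ± 0.16, SD, n = 6, higher in 6 of 6 libraries, exact sign-flip permutation p = 0.031, the smallest for 6) and 1.21 times as many in the pigment cell libraries (0.27 ± 0.098, SD, n = 6, 6 of 6, exact sign-flip permutation p = 0.031). The 6 libraries of a pair come from 2 lines, so these p-values cover the spread between libraries and not between circRNAs. The median circRNA did not show the higher reads. The median was 3, 3 and 6 reads for short and 2, 3 and 6 reads for longer circRNAs in 4T1, and 2 reads for both in each B16F10 library. Without the 2 most abundant short circRNAs of each table the mean log2 ratio was 0.22 in the mammary libraries (exact sign-flip permutation p = 0.031) and -0.061 in the pigment cell libraries (0.125).

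Among detected circRNAs, 11.4 ± 0.52% were short in 4T1, against 10.4 ± 0.32% in Eph4-ev (SD, n = 3 each, difference 0.965 points, exact permutation p = 0.1). In B16F10 and Melan-a 9.93 ± 0.33% and 9.55 ± 0.39% were short (SD, n = 3 each, difference 0.374 points, exact permutation p = 0.4, and 0.150 points without Melan-a replicate 2). Thinned to 15572 reads, the shares were 11.6, 11.8 and 10.9% in 4T1, against 9.88, 10.2 and 10.8% in Eph4-ev.

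Taken over all read counts, a larger share of short than of longer circRNAs was detected in all 3 libraries of a line. Of those with a read in the line, 27.6% were seen in all 3 libraries of 4T1 (172 of 624), against 21.3% of longer circRNAs. The shares were 36.8% and 31.6% in Eph4-ev, 26.1% and 22.7% in B16F10, and 24.6% and 22.03% in Melan-a. The 95% exact binomial intervals were apart in 4T1 and Eph4-ev and overlapped in B16F10 (22.7 to 29.6% and 21.7 to 23.8%) and Melan-a (21.2 to 28.3% and 20.98 to 23.1%). With at least 2 reads needed per library the gap in Eph4-ev narrowed to 30.3% and 28.3%, with overlapping intervals. Detection depends on reads per circRNA, so the same was counted within bins of reads. With 10 to 29 reads over the line, short and longer circRNAs were seen in all 3 libraries in 62.0% and 49.9% in 4T1, 78.8% and 67.0% in Eph4-ev, 90.1% and 88.5% in B16F10, and 75% and 66.1% in Melan-a. The intervals of short and longer circRNAs in that bin were apart in Eph4-ev (71.9 to 84.7% and 64.7 to 69.4%), overlapped slightly in 4T1 (52.7 to 70.7% and 46.8 to 52.9%) and overlapped more in Melan-a (65.6 to 83.0% and 63.0 to 69.0%) and B16F10 (81.5 to 95.6% and 85.9 to 90.8%). Lower bins were mixed. With 5 to 9 reads the shares were 13.0% and 11.4% in 4T1, 27.1% and 18.5% in Eph4-ev and 49.4% and 42.3% in B16F10, but 14.96% for short and 16.1% for longer circRNAs in Melan-a. With 2 to 4 reads the short share was the lower one in 4T1 (0.543% and 1.06%) and Eph4-ev (1.18% and 2.04%) and the higher one in B16F10 (4.86% and 3.18%) and Melan-a (2.39% and 0.828%). These intervals treat circRNAs as independent and cover counting only, and the difference was not tested over samples.

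**Figure D3:**
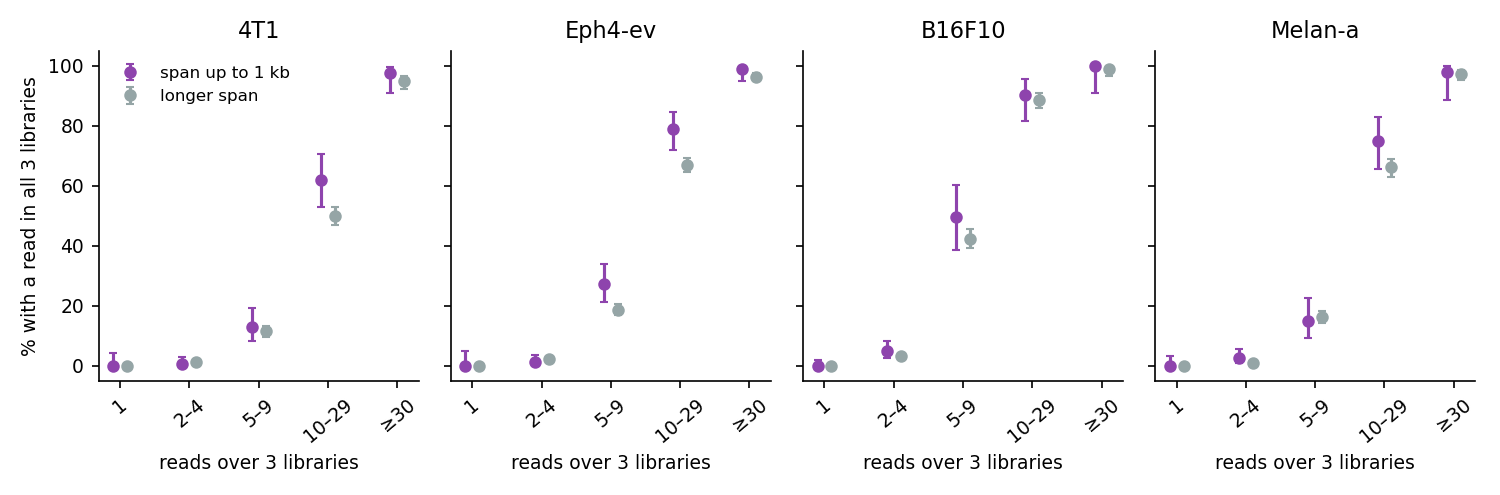
Percent of circRNAs with a read in all 3 libraries of a line, by their reads summed over the 3 libraries, for spans up to 1 kb and longer spans. Bars are 95% exact binomial intervals. At 10 to 29 reads the share is 62.0% for short and 49.9% for longer circRNAs in 4T1, and 90.1% and 88.5% in B16F10.

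In 4T1 against Eph4-ev, 214 of the 948 short circRNAs had enough reads to be tested, and 17 were higher and 15 lower (edgeR, Benjamini-Hochberg adjusted p under 0.05 over all tested circRNAs). The 32 are 14.95% of those tested, where 17.4% of all 1869 tested circRNAs were called (5.99% higher and 11.4% lower). The median log2 fold of the tested short circRNAs was 0.21, against -0.22 over all tested. With scaling by total reads alone the split was 25 higher and 13 lower, since that scaling moved the median of all circRNAs by 0.21. The counts fell without single libraries, to 10, 9, 8, 6 and 7 higher without 4T1 replicate 1, 4T1 replicate 3, Eph4-ev replicate 1, Eph4-ev replicate 2 and Eph4-ev replicate 3, and to 4 lower without Eph4-ev replicate 2. Of the 32, 9 kept the call under every left-out library and every other setting tried, among them Alg12, Bub1b, Fam160b1, Med13l, Tead1, Vars, Wasf2 and Zfp609.

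Exon 2 of Zfp609, a zinc finger gene whose ring has been described in human and mouse myoblasts, was lower in 4T1. It stood at 899, 959 and 1031 RPM in 4T1, against 6555, 6920 and 7147 RPM in Eph4-ev. The groups lay far apart (edgeR adjusted p = 8.16e-06 for a log2 fold of -3.03, SE 0.19). Alg12, a mannosyltransferase of the endoplasmic reticulum that extends N-glycan precursors, had 6, 16 and 19 reads in 4T1, against 108, 116 and 126 in Eph4-ev (adjusted p = 0.00211 for a log2 fold of -2.18, SE 0.33).

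Exon 2 of Med13l, which encodes a part of Mediator's kinase module, was the most abundant short ring called higher. It stood at 14128, 11221 and 8493 RPM in 4T1, against 2922, 2948 and 3402 RPM in Eph4-ev (edgeR adjusted p = 0.000321 for a log2 fold of 1.61, SE 0.18). Exon 2 of Tead1, a transcription factor of the Hippo pathway, stood at 2376, 2650 and 3182 RPM in 4T1, against 671, 865 and 828 RPM in Eph4-ev (adjusted p = 0.0042 for a log2 fold of 1.58, SE 0.27). Exons 21 to 22 of Vars, a valyl-tRNA synthetase, had 32, 23 and 75 reads in 4T1, against 5, 23 and 16 in Eph4-ev. Read counts of Vars overlapped, but the RPM did not, at 1297 to 2055 in 4T1, against 98.7 to 406 in Eph4-ev (adjusted p = 0.00832 for a log2 fold of 2.41, SE 0.47).

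Some rings were seen in 1 line of a pair, taken as at least 2 reads in each of its libraries and 0 in the other line of the pair. They were 3 of 948 short circRNAs for 4T1, where 0.548% of all circRNAs met the rule, and 29 for Eph4-ev, where 3.52% did. Eph4-ev libraries were deeper than 4T1 libraries, and the part of depth in these counts was not tested.

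Exons 6 to 7 of Fam160b1, a gene of the FHIP family, had 25, 51 and 106 reads in 4T1, against 0, 0 and 0 in Eph4-ev, at least 127-fold higher when the floor is set at 3 counts over the Eph4-ev libraries (edgeR adjusted p = 9.77e-05). Both pigment cell lines had the ring, with 20, 26 and 21 reads in B16F10, against 19, 48 and 32 in Melan-a (edgeR adjusted p = 0.963 for a log2 fold of 0.05, SE 0.36). Fut10, a fucosyltransferase, was at least 18.1-fold higher (26 reads in 4T1) and Pla2g6, a phospholipase, at least 13.9-fold higher (20 reads). Fut10 lost the call without Eph4-ev replicate 2 (edgeR adjusted p = 0.0634), and Pla2g6 without 4T1 replicate 1 (0.0657) or without any of the Eph4-ev libraries (0.0621, 0.0922 and 0.0806) and with no filter (0.0518).

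In the other direction, exons 16 to 17 of Bub1b, a spindle checkpoint kinase, had 0 reads in 4T1, against 30, 42 and 34 in Eph4-ev, at least 16.9-fold lower in 4T1. The other Bub1b circRNAs had 30 reads in 4T1, against 421 in Eph4-ev, and 1 of the 2 tested was also called lower. Exons 3 to 4 of Wasf2, an actin regulator of the WAVE family, had 0 reads in 4T1, against 26, 21 and 25 in Eph4-ev (at least 11.5-fold lower). Wasf2 had 3 reads in 1 B16F10 library and 0 in Melan-a. The kinase gene Map4k3 was at least 12.3-fold lower and the transporter gene Slco3a1 at least 11.01-fold lower, and both lost the call without Eph4-ev replicate 2 (edgeR adjusted p of 0.0544 and 0.0829).

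The other called members with reads in both lines were less stable. Smad1, a mediator of BMP signals, had 1156, 846 and 1412 RPM in 4T1, against 1935, 2860 and 2718 RPM in Eph4-ev (edgeR adjusted p = 0.0142 for a log2 fold of -1.31, SE 0.29, and 0.0855 without Eph4-ev replicate 2). Rack1, a ribosomal scaffold protein, had 2, 1 and 4 reads in 4T1, against 24, 31 and 49 in Eph4-ev (log2 fold -2.98, adjusted p = 0.0124, and 0.0591 and 0.0675 without Eph4-ev replicates 2 and 3). Higher were also Rab3gap2 (2.15), Zdhhc16 (1.96), Arhgap10 (1.96) and Sf3b3 (1.75, a splicing factor), and lower Rev1 (-2.04), Nudcd3 (-1.28) and the histone acetyltransferase gene Ep300 (-2.70), with edgeR adjusted p of 0.0124 to 0.043. Each of these 7 lost the call when some libraries were left out in turn. The adjusted p was then 0.0513 and 0.083 for Rab3gap2 (4T1 replicate 3, Eph4-ev replicate 2), 0.0708 and 0.0821 for Rev1 (Eph4-ev replicates 2 and 3), and 0.072, 0.0588 and 0.0747 for Zdhhc16 (4T1 replicate 1, then replicates 1 and 3 of Eph4-ev). It was 0.0927, 0.0855 and 0.0855 for Arhgap10 (4T1 replicate 1, then replicates 2 and 3 of Eph4-ev) and 0.0613, 0.0624, 0.0607 and 0.135 for Nudcd3 (4T1 replicates 1 and 2, Eph4-ev replicates 1 and 2). For Sf3b3 it was 0.0776, 0.0588, 0.083 and 0.0533 (4T1 replicate 3, each of the Eph4-ev libraries in turn), and for Ep300 0.0765, 0.076, 0.12, 0.119 and 0.129 (4T1 replicates 1 and 2, all 3 of Eph4-ev in turn). Sf3b3 was also lost with no filter (0.0803) and Ep300 with total-read scaling (0.0567).

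In B16F10 against Melan-a, 93 of the 843 short circRNAs with reads were tested, and 8 were higher and 7 lower. The 15 are 16.1% of those tested, where 10.9% of all 874 tested circRNAs were called (5.03% higher and 5.84% lower). The median log2 fold was 0.17, against 0.04 over all tested. The higher calls fell to 3, 5, 3, 4 and 3 without B16F10 replicates 1, 2 and 3 and Melan-a replicates 1 and 3, and the lower calls to 4 and 4 without B16F10 replicates 1 and 3. Without Melan-a replicate 2, which stood apart, they were 11 and 10. These hold all 15 of the calls, and 6 more, among them Pmel, Kat6b, Bub1b and Cdyl. The calls of Alg12, Atxn2, Epha3, Hirip3, Vars and Zfp609 held under every left-out library and every other setting tried.

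Exon 3 of Epha3, an ephrin receptor tyrosine kinase, had 27, 24 and 26 reads in B16F10, against 4, 8 and 3 in Melan-a (edgeR adjusted p = 0.000606 for a log2 fold of 2.92, SE 0.44). The other Epha3 circRNAs moved with it, with 150 reads in B16F10, against 32 in Melan-a. Exons 5 to 6 of Hirip3, a histone-binding partner of HIRA, had 29, 38 and 35 reads in B16F10, against 3, 20 and 5 in Melan-a (adjusted p = 0.00356 for a log2 fold of 2.48, SE 0.48). Here Melan-a replicate 2 was high, at 596 RPM against 120 and 199 RPM. The Melan-a mean was 305 RPM with it and 159 RPM without it, and the log2 fold without it was 3.49 (adjusted p = 3.53e-05).

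Exons 19 to 20 of Atxn2, an RNA-binding protein gene, had 3, 3 and 3 reads in B16F10, against 26, 33 and 25 in Melan-a (edgeR adjusted p = 0.0028 for a log2 fold of -2.60, SE 0.48). In the mammary lines the same ring had 4, 3 and 0 reads in 4T1, against 13, 48 and 39 in Eph4-ev and missed the threshold (adjusted p = 0.0745 for a log2 fold of -2.66, SE 0.93, with 0.00502 under no filter, 0.0309 with the replicate number as a block and 0.0529 to 0.286 under the other settings). Rad52, a recombination gene, had 900, 826 and 1318 RPM in B16F10, against 3869, 1967 and 3737 RPM in Melan-a (adjusted p = 0.00434 for a log2 fold of -1.71, SE 0.34, and 0.0635 without B16F10 replicate 1).

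Of the remaining called members, the RNA-binding gene Samd4 (-1.44) and the tRNA synthetase gene Farsa (-1.80) were lower in B16F10. Dact3 (2.26, a Wnt pathway gene), the kinetochore gene Zwilch (1.96), Atxn7 (1.62) and Fam53b (1.51) were higher. These log2 folds had edgeR adjusted p of 0.0223 to 0.0379, and each call was lost without some libraries. The adjusted p was then 0.157, 0.106 and 0.0911 for Farsa (B16F10 replicates 2 and 3, Melan-a replicate 3), 0.116, 0.0989 and 0.0772 for Fam53b (B16F10 replicates 1 and 3, Melan-a replicate 3), and 0.181, 0.302, 0.111 and 0.0882 for Dact3 (B16F10 replicates 1 and 3, Melan-a replicates 1 and 3). The calls of Samd4, Atxn7 and Zwilch were lost without B16F10 replicate 1, 2 or 3 and Melan-a replicate 1 or 3, at 0.0808 to 0.119 for Samd4, 0.0675 to 0.158 for Atxn7 and 0.0845 to 0.243 for Zwilch. With no filter the adjusted p was 0.233 for Atxn7, 0.193 for Dact3, 0.0692 for Fam53b and 0.189 for Zwilch. Trip6, a LIM domain protein of focal adhesions, stood at 3898, 4131 and 3174 RPM in B16F10, against 2752, 1579 and 1789 RPM in Melan-a and missed the threshold (log2 fold 0.82, adjusted p = 0.0968, and 0.67 and 0.0996 without Melan-a replicate 2). By the rule for rings of 1 line of a pair, Ccm2 was seen in B16F10 and not in Melan-a (6, 2 and 4 reads). It was 1 of 843, where 0.373% of all circRNAs met the rule. Mrps18b, Wdr20 and Zbtb10 were seen in Melan-a and not in B16F10 (17, 9 and 12 reads over its libraries, 3 of 843, against 0.497%). Each of these rings had reads in the mammary lines, as with Ccm2 (1, 7 and 13 in 4T1, against 11, 35 and 17 in Eph4-ev).

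**Figure D4:**
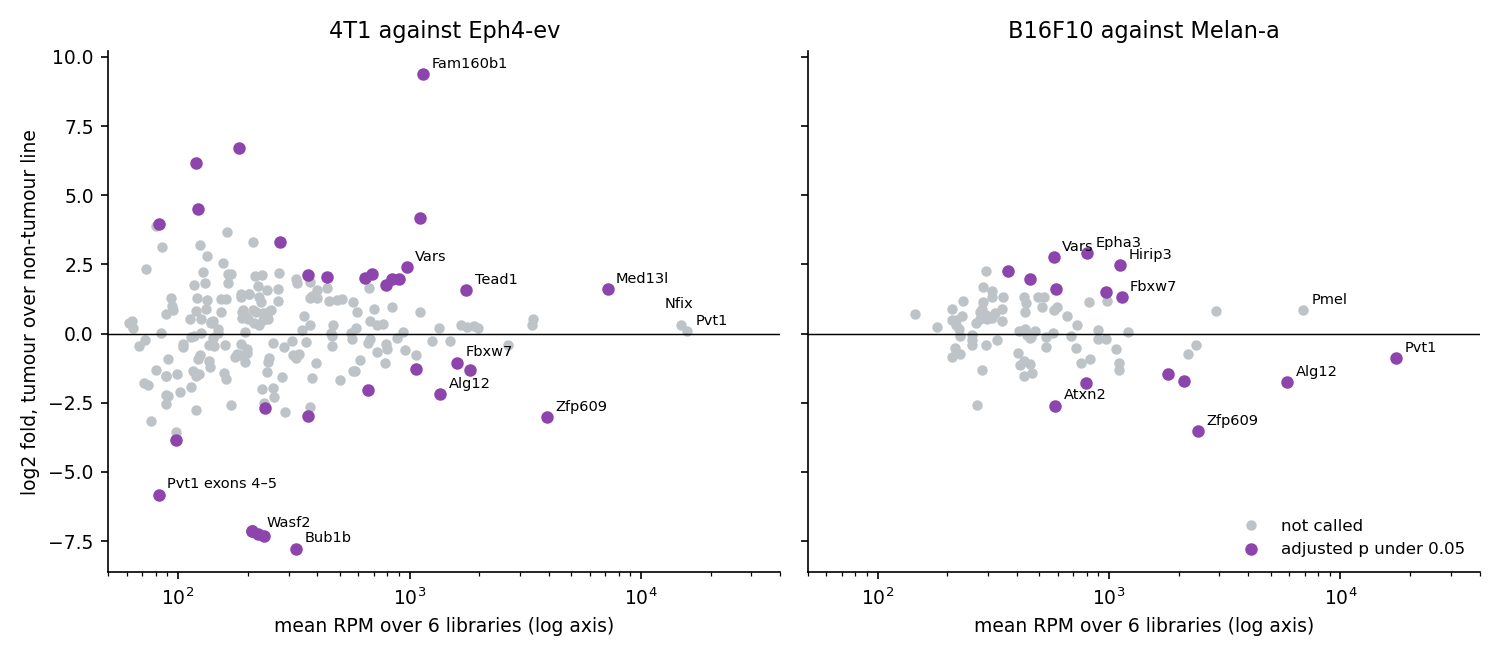
Log2 fold of tested short circRNAs, tumour over non-tumour line, against mean RPM over the 6 libraries on a log axis, with calls at an edgeR adjusted p under 0.05 in purple. For rings with 0 reads in a line, such as Fam160b1, Bub1b and Wasf2, the fitted fold depends on the prior count and is no measure of size. Zfp609 and Alg12 lie low and Vars high in both panels.

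Across the pairs, 74 short circRNAs were tested in both, of which 15 were called in the mammary and 12 in the pigment cell comparison, and 4 in both. These are 20.3, 16.2 and 5.41% of the 74, where 21.5, 9.91 and 3.20% of all 656 circRNAs tested in both tables were called, and whether short circRNAs differ from the rest in this was not tested. Zfp609 and Alg12 were lower in both tumour lines, Vars was higher in both, and Fbxw7 moved in opposite directions. The libraries of the 2 comparisons are separate.

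In the pigment cells Zfp609 stood at 150, 531 and 539 RPM in B16F10, against 5384, 2652 and 5287 RPM in Melan-a (edgeR adjusted p = 0.000107 for a log2 fold of -3.52, SE 0.44). Alg12 stood at 2549, 3423 and 2336 RPM in B16F10, against 10649, 5066 and 11329 RPM in Melan-a (adjusted p = 0.0028 for a log2 fold of -1.75, SE 0.32). In both, Melan-a replicate 2 was the lowest of its group and still above all B16F10 libraries. Vars had 21, 18 and 16 reads in B16F10, against 1, 8 and 3 in Melan-a (adjusted p = 0.00434 for a log2 fold of 2.76, SE 0.55, which was 3.54 without Melan-a replicate 2). The difference between the pairs was tested by an edgeR interaction over all 12 libraries. Of 153 short circRNAs tested, 6 had a higher and 9 a lower fold in the mammary pair, where 11.5% of all 1403 tested were called (3.78% higher and 7.77% lower). The test did not pass for Zfp609 (0.39, adjusted p = 0.69), Alg12 (-0.52, 0.511) or Vars (-0.45, 0.776).

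Fbxw7 encodes the substrate receptor of an SCF ubiquitin ligase, and exon 4 holds its start codon in the annotated transcript. It stood at 1092, 959 and 1367 RPM in 4T1, against 2330, 1995 and 1926 RPM in Eph4-ev, with 4T1 wholly below (edgeR adjusted p = 0.0228 for a log2 fold of -1.05, SE 0.27). In B16F10 it stood at 1849, 1535 and 1557 RPM and in Melan-a at 439, 834 and 596 RPM, with B16F10 wholly above (adjusted p = 0.033 for a log2 fold of 1.31, SE 0.36). The difference between pairs was -2.46 (SE 0.48, adjusted p = 0.00138) and held without each library in turn, with a largest adjusted p of 0.00745. The mammary call was lost without 4T1 replicate 2 (0.055), Eph4-ev replicate 1 (0.0763) or Eph4-ev replicate 2 (0.0922), and the pigment cell call without B16F10 replicates 1, 2 and 3 (0.167, 0.0847 and 0.0989) and Melan-a replicates 1 and 3 (0.114 and 0.0915) and with no filter (0.129).

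**Figure D5:**
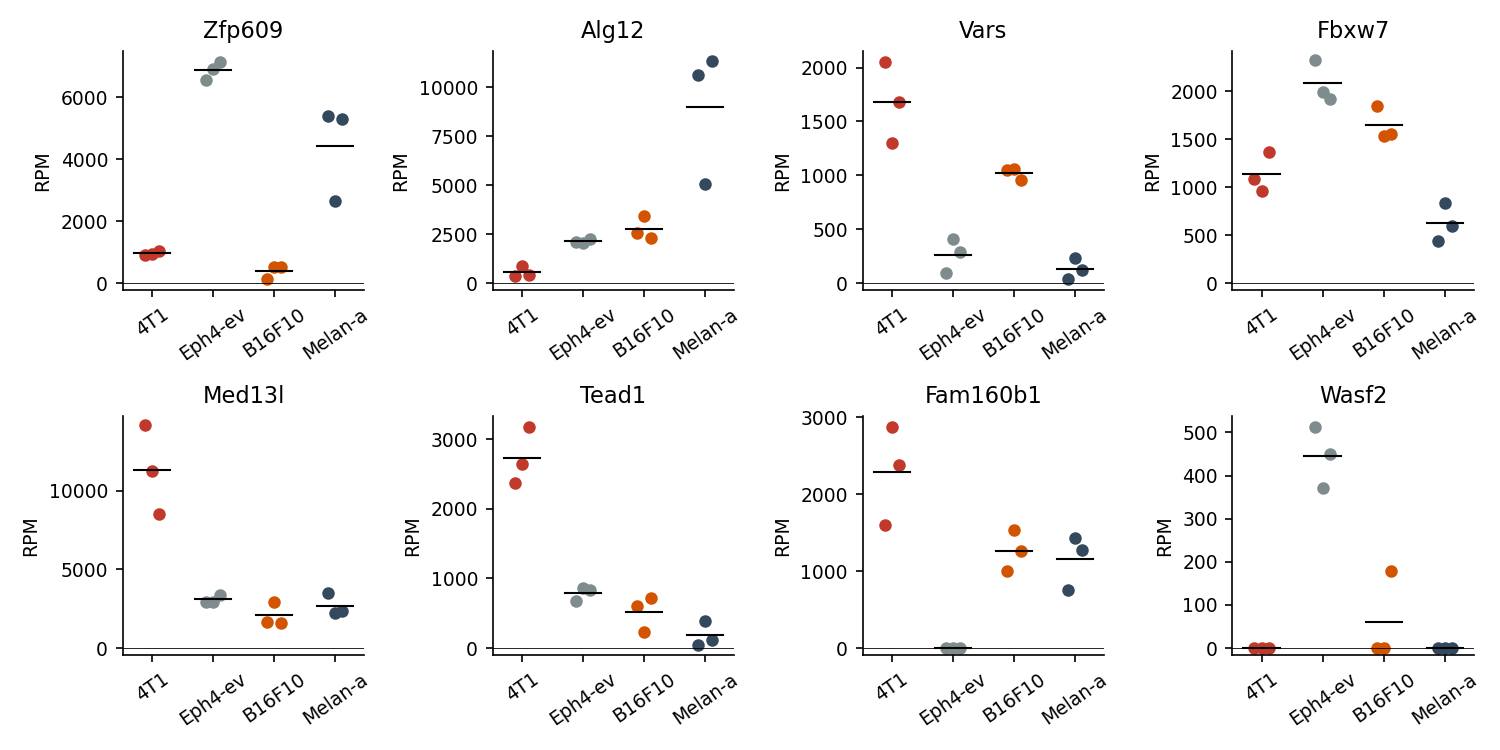
RPM of 8 short circRNAs in each library of the 4 lines, on linear axes from 0, with a bar at the mean of 3. Zfp609 and Alg12 are lower and Vars higher in both tumour lines, and Fbxw7 is lower in 4T1 and higher in B16F10. Fam160b1 has 0 reads in Eph4-ev and reads in all libraries of the other lines, and Wasf2 has 26, 21 and 25 reads in Eph4-ev and 3 in 1 B16F10 library.

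The called short rings were set beside the other circRNAs of their host. Of 32 called short circRNAs in the mammary pair, 23 had hosts with at least 10 reads on other circRNAs. In 19 of these no other circRNA of the host was called in the same direction, though only 13 of the 23 hosts had another tested one. The same count was not made for longer circRNAs. In the other 4 hosts, Arhgap10, Bub1b, Med13l and Zfp609, another circRNA was called in the same direction. Both other tested Med13l circRNAs were called higher (log2 folds 3.12 and 4.08), and the 1 other tested of Zfp609 lower (edgeR adjusted p = 0.0201). The ring of Arhgap10 held 29.1, 14.3 and 8.99% of its host's reads in 4T1, against 4.67, 5.70 and 2.48% in Eph4-ev (exact permutation p = 0.1), and 1 of the 13 other tested Arhgap10 circRNAs was also called higher.

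In the pigment cell pair 8 called short circRNAs had such hosts, 6 of them with another tested circRNA. In 6 of the 8 no other circRNA was called in the same direction. The exceptions were Epha3 and Zfp609, each with 1 other tested circRNA, called higher for Epha3 and lower for Zfp609. The Atxn2 ring held 9.68, 9.68 and 7.69% of the host's reads in B16F10, against 34.7, 35.1 and 42.4% in Melan-a. The remaining Atxn2 circRNAs had 1715 RPM in B16F10, against 1719 RPM in Melan-a. The Fam53b ring held 44.9, 34.4 and 37.7% in B16F10, against 20.2, 6.91 and 13.2% in Melan-a. The remaining Fam53b circRNAs were lower in B16F10, at 2255 RPM, against 3676 RPM in Melan-a. They had 67, 175 and 66 reads in Melan-a replicates 1, 2 and 3. For both rings the difference in share had an exact permutation p of 0.1, the smallest possible. The smallest edgeR adjusted p of the other tested circRNAs was 0.88 for Atxn2 (2 tested) and 0.246 for Fam53b (1 tested).

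Hosts were also grouped by function, and the counts are to be read beside the 17.4% of all tested circRNAs called in the mammary and the 10.9% called in the pigment cell comparison, since each list had few tested members. Of 27 short circRNAs from zinc finger and other transcription factor genes in the mammary table, 11 were tested. Med13l and Tead1 were higher and Zfp609 lower. The 11 had a median log2 fold of 0.75, against -0.22 over all tested and 0.21 over the tested short circRNAs. Of 25 from chromatin regulators 12 were tested and Ep300 was lower (median 0.74). Kinases and phosphatases had 4 tested with Map4k3 lower (median -1.26), and the ubiquitin system 3 tested with Fbxw7 lower. Of short circRNAs from hosts of a well described ring of 1 exon, 8 were tested, with Med13l higher and Zfp609 and a Pvt1 ring lower (median 0.19). The Pvt1 ring covers exons 4 to 5, and of the 4 that cover 1 exon, Med13l was higher and Zfp609 lower (median 0.20). In the pigment cell table, the list of transcription factor genes had 7 tested with Zfp609 lower. The median was -0.10, against 0.04 over all tested and 0.17 over the tested short circRNAs. Chromatin regulators had 5 tested with edgeR adjusted p of 0.0933 (Kat6b, 0.0276 without Melan-a replicate 2) or more. Kinases had 2 tested with Epha3 higher, RNA-binding genes 1 tested (Mbnl2, adjusted p = 0.0968), the ubiquitin system 3 tested with Fbxw7 higher, and the hosts of well described rings 5 tested, 4 of them of 1 exon, with exon 2 of Pvt1 and of Zfp609 lower.

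Of the most abundant rings near the limit, those of Atxn2, described above, and Hmgxb3 span exactly 1000 bp. The Hmgxb3 ring had 12, 17 and 10 reads in 4T1, against 34, 51 and 45 in Eph4-ev, and 2, 4 and 10 in B16F10, against 11, 13 and 5 in Melan-a. In RPM its mammary groups overlapped, at 771, 959 and 224 in 4T1, against 671, 900 and 810 in Eph4-ev. Its edgeR adjusted p was 0.42 in the mammary pair (log2 fold -0.65, SE 0.49) and 0.892 in the pigment cell pair (-0.24, SE 0.69). Just outside, the ring of Utp20 (1004 bp) had 5, 9 and 27 reads in 4T1, against 13, 16 and 26 in Eph4-ev, and 1, 0 and 2 in B16F10, against 9, 12 and 6 in Melan-a. In RPM the Utp20 ring stood at 321, 507 and 605 in 4T1, against 257, 282 and 468 in Eph4-ev. These groups overlapped (edgeR adjusted p = 0.736 for a log2 fold of 0.33, SE 0.53). The ring of Spen (1003 bp) had 0 reads in 4T1, against 5, 12 and 9 in Eph4-ev, and 2, 6 and 1 in B16F10, against 0 in Melan-a. The 3 shortest rings with reads in each table were those of Acd (137 bp), Cirbp (139 bp), Kdm3a (140 bp), Hivep1 (143 bp), Slc16a1 (144 bp) and Lama5 (149 bp). Each had 1 or 2 reads in the table that named it, which is too few to compare lines.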

How the data were processed

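Per the labels' protocols, TRIzol total RNA was treated with RNase R, ligated to adapters, amplified and size-selected, and circRNAs were found with CIRI2 on BWA-MEM and CIRCexplorer2 on TopHat alignments. The submitters' processing notes give mm10 as the build and list DESeq, DESeq2 and edgeR with no role. How both callers were combined is not given in the sources used here. The deposited count columns, per the file headers, are raw reads across each back-spliced junction, in 1 table for each pair of lines. The deposited RPM columns hold these counts scaled by the authors to the junction read total of the column, by their values, and the counts were used for tests. Columns that matched no sample numbered 0.

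Tests used edgeR 4.0.16 (R 4.3.3), quasi-likelihood, TMM factors, a minimum count of 5 and total of 10, with Benjamini-Hochberg adjustment over all tested circRNAs of the table and calls under 0.05. The difference between pairs was an interaction over all 12 libraries. Code was tested on simulated data. Single values used exact permutation tests, two-sided (scipy 1.17.1, numpy 2.4.6, pandas 2.3.3). Alternatives were DESeq2 1.42.0, other scalings and filters, spans of 500 and 2000 bp, a replicate block and leaving out each library. Exons, introns and spliced sequence came from GENCODE M21. A genome sequence was not used here, so intron letters at the splice sites were not examined.

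Named are the 8 most abundant members per table, up to 8 called per direction with reads in both lines, up to 4 per line by the rule of reads in 1 line alone, those called in both comparisons, 2 per gene list, 4 by interaction, and the shortest and those at the span limit. A member that these rules name is not reported here, though the counts include it. The members, lists and rules were chosen with earlier results of these data known. The labels do not say whether the libraries of a line came from separate cultures, so p-values measure the spread between these libraries, which may be technical. Without molecular identifiers, intervals and floors cover counting error only.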

Additional observations from a re-analysis of the deposited data

Results flagged for a closer look

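Short circRNAs whose log2 fold in 4T1 over Eph4-ev differed from that in B16F10 over Melan-a were found by the edgeR interaction. Of 153 tested over all 12 libraries together, 6 had a higher and 9 a lower fold in the mammary pair (9.80% of those tested, where 11.5% of all 1403 were called, 3.78% higher and 7.77% lower). With RLE factors the median of all circRNAs moved by 0.25.

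Higher were Fam160b1 (8.89, adjusted p = 7.51e-07), Mbnl2 (2.60, 0.0499), Med13l (1.96, 0.00171), Farsa (1.90, 0.0482), Samd4 (1.86, 0.0125) and Pvt1 exon 2 (0.88, 0.0257). Lower were Wasf2 (-10.84, 0.0134), Bub1b (-8.42, 0.000322), Slco3a1 (-8.17, 0.000424), Ccm2 (-6.69, 0.0164), Lats2 (-5.66, 0.0246), Rack1 (-5.50, 0.0129), Pwwp2a (-2.57, 0.0303), Fbxw7 (-2.46, 0.00138) and a ring listed with both ENSMUSG00000086836.1 and Klf7 (-2.36, 0.0347). Lats2 and Pwwp2a lie outside the naming rule and are given because the test passed. Where a line had 0 reads, for example Fam160b1 in Eph4-ev and Bub1b, Wasf2 and Slco3a1 in 4T1, the size depends on the prior count.

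The difference held without each library in turn for Bub1b, Fam160b1, Fbxw7, Med13l, Samd4 and Slco3a1. It was lost for Wasf2 without B16F10 replicate 3, the pigment cell library that held all 3 of its reads (adjusted p of 1), for Ccm2 without Eph4-ev replicate 2 (0.0691) and for Rack1 without Eph4-ev replicate 3 (0.0598) and B16F10 replicate 3 (0.0564). For the other 6 it was lost without at least 6 of the 12 libraries in turn. The adjusted p reached 0.0976 for Pvt1 (without B16F10 replicate 3), 0.195 for Mbnl2 (without 4T1 replicate 3), 0.171 for Klf7 (without Eph4-ev replicate 3), 0.166 for Farsa (without B16F10 replicate 2), 0.146 for Pwwp2a (without Eph4-ev replicate 2) and 0.067 for Lats2 (without B16F10 replicate 2). The same 6 were also lost with no filter on low counts, at 0.169 for Pvt1, 0.287 for Mbnl2, 0.152 for Klf7, 0.282 for Farsa, 0.106 for Pwwp2a and 0.066 for Lats2. With RLE factors Klf7 (0.0588) and Pwwp2a (0.0542) were lost.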

How the results depend on the processing

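The difference in share of short reads between B16F10 and Melan-a turned to 0.281 points at a limit of 500 bp and 0.035 points at 2000 bp. With the share of detected circRNAs that have at least 10 reads in place of the mean, short exceeded longer circRNAs by 2.15 points in the mammary and 1.33 points in the pigment cell libraries, no longer past the threshold. Without the 2 most abundant rings the log2 ratio in the pigment cell libraries was -0.061. With 2 reads needed per library, 30.3% of short and 28.3% of longer circRNAs were in all 3 Eph4-ev libraries. A limit of 500 bp gave 11 higher and 4 lower in 4T1 and 3 higher and 2 lower in B16F10, rings of 1 exon at any span 10 and 4 higher, and no filter 10 and 3 higher and 3 higher between pairs. Leaving out single libraries gave 6 to 15 higher and 4 to 15 lower in 4T1, 3 to 11 and 4 to 10 in B16F10, and 3 to 7 and 5 to 10 between pairs.

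Small folds changed sign. With no filter, those in 4T1 were -0.078 for Igf1r and -0.20 for Pvt1. Leaving out single libraries gave -0.031 to 0.12 for Pvt1 in 4T1 (-0.024 without 4T1 replicate 2, lowest without Eph4-ev replicate 1), -0.073 to 0.56 for Utp20 in 4T1 (lowest without 4T1 replicate 3), -0.22 to 0.25 for Fam160b1 in B16F10 (-0.084 without B16F10 replicate 2, lowest without Melan-a replicate 1) and -1.07 to 0.20 for Hmgxb3 in B16F10 (highest without B16F10 replicate 1). The causes were not tested. Other values of named members kept direction and side of the threshold in 697 cases, lost the call in 84 and gained it in 13.

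Same-numbered libraries did not deviate together (r of 0.029, -0.039 and 0.015 in the mammary pair, 0.067, -0.053 and 0.016 in the pigment cell pair). Over both pairs, differently numbered libraries gave r of -0.12 to 0.10. These values gave no sign of pairing by number, and with 3 libraries per line they cannot exclude it. With the replicate block, 11 were higher and 15 lower in 4T1, 6 and 7 in B16F10, and 3 and 7 between pairs, where the adjusted p was 0.0542 for Pvt1, 0.0551 for Farsa, 0.0668 for Mbnl2, 0.0588 for Klf7 and 0.0542 for Pwwp2a.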
